A study of Homo sapiens with 6 samples.

Results

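Transcript levels of TBK1 and of the genes that sense foreign nucleic acid and signal through it were read in A549 cells, a human lung adenocarcinoma cell line, with and without overexpression of TIPARP. The set held 10 genes chosen by symbol, among 53826 gene entries per library. They were the kinases TBK1 and IKBKE, the transcription factors IRF3 and IRF7, the RNA sensors DDX58 (RIG-I), IFIH1 (MDA5) and TLR3, the DNA sensor MB21D1 (cGAS), and the adaptors MAVS and TMEM173 (STING). All 10 were present in the tables, and 8 of them passed the filter for testing (TPM above 2 in at least 1 of 6 libraries), among 13181 genes that did. TLR3 and TMEM173 did not pass it. Both lines were made with a retroviral pMXs vector. It carried the TIPARP coding region in A549-TIPARP cells and GFP in the control A549-GFP cells. RNA-seq of 3 libraries per line was available. The labels number the experiments 1 to 3 in both lines. They do not state whether equal numbers mark a shared experiment, whether each line was a clone or a pool, or whether the libraries came from separate cultures, so the p-values measure the spread between these libraries.

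Cells recognize viral RNA and DNA in the cytoplasm with dedicated receptors. RIG-I and MDA5 bind double-stranded or uncapped RNA and signal through MAVS on mitochondria, whereas cGAS binds DNA and makes a cyclic dinucleotide that activates STING. TLR3 recognizes double-stranded RNA in endosomes. These routes converge on the kinases TBK1 and IKK epsilon, encoded by IKBKE, which phosphorylate IRF3 and IRF7 and so switch on the type I interferon genes. Secreted interferon acts through a transcription factor complex that includes IRF9 and raises the transcription of several sensors and of IRF7 itself. TIPARP, a mono-ADP-ribosyltransferase induced by the aryl hydrocarbon receptor, is known to modify the TBK1 protein and lower its activity. Transcript levels do not report on kinase activity or on modification of a protein.

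The sequences just upstream of 3 members are shown because the levels of these genes differed between single libraries in different ways: TBK1 varied less, while DDX58 and IFIH1 stood together in 1 control library. They are RefSeq promoter sequences of GRCh38.p14, from 5′ to 3′ on the strand of the gene, and each ends just before the annotated start of the gene. Capitals mark letters of the form GAAANNGAAA on either strand, which is the core form of the interferon-stimulated response element. TBK1 is shown from chr12:64451940-64452089 (plus strand), DDX58 from chr9:32526209-32526376 (minus strand) and IFIH1 from chr2:162318685-162318864 (minus strand).
TBK1: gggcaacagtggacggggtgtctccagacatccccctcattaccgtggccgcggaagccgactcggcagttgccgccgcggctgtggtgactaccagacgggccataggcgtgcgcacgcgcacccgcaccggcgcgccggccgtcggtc
DDX58: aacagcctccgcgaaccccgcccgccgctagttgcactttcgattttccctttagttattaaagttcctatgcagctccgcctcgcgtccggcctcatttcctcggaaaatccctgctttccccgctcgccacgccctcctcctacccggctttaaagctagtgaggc
IFIH1: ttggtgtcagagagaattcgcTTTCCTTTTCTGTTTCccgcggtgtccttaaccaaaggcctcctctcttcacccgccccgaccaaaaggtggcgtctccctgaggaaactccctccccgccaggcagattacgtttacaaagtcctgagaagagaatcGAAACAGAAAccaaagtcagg
Of the 10 members, 6 were in the promoter table (TBK1, IKBKE, DDX58, IFIH1, TLR3 and MAVS). In windows of 300 bases, from 250 before to 50 after the start, the form was found 3 times for IFIH1, with 2 of these matches overlapping, and 1 time for TLR3. It was not found in the windows of TBK1, IKBKE, DDX58 and MAVS. Of all 35116 windows, 3.57% held it. The letters GCGTG, the core of the element bound by the aryl hydrocarbon receptor, were found 2 times for TBK1 and 1 time each for DDX58 and MAVS, and in 36.5% of all windows. These letter matches are descriptions of sequence and not of binding.

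The measurement was the deposited log2 TPM of a gene, where TPM is its length-corrected share of all transcripts in a library. The lowest listed value was 0, which stands for a TPM of 1 or less, and 40106 to 40891 entries per library were at it. Read numbers cannot be taken from TPM, which leaves sequencing depth and counting error unknown. TIPARP was at 3.68 to 11.4 TPM in the A549-GFP libraries, which hold no TIPARP vector, with the highest value in A549-GFP replicate 2. It was at 90.5 to 131 TPM in the A549-TIPARP libraries, where the cells' own gene and the transgene are not told apart. This 17.2-fold difference separated all libraries of the lines (limma adjusted p = 0.0125). The TIPARP difference of 3.90 on log2(TPM + 1) stayed between 3.54 and 4.24 with 1 library left out in turn, but its adjusted p was then 0.0331 to 0.192 and above 0.05 in 5 of 6 fits. The adjusted p was 0.0965 with no filter and 0.513 with the replicate number as a block. A549-GFP replicate 2 stood apart from the other libraries. Over all tested genes it deviated from its line by 0.536 (root mean square, log2(TPM + 1)), against 0.152 to 0.341 for the other 5 libraries. All 6 epithelial marker genes were detected, while 3 of 6 haematopoietic markers (PTPRC, CD3E and HLA-DRA), 5 of 5 endothelial markers and 5 of 7 fibroblast markers were listed at 0 in every library. The summed TPM of the haematopoietic list was 31.9 to 79.0 in A549-GFP cells and 32.9 to 48.5 in A549-TIPARP cells, and that of the fibroblast list was 1.09 to 1.44 and 1.64 to 2.56.

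None of the 8 tested members passed a test between the lines. No member had a limma adjusted p under 0.05, against 2 of 13181 genes (0.0152%), and none had an unadjusted p under 0.05, against 508 genes (3.85%). Counted by direction, that unadjusted threshold was passed by 2.97% of all genes with higher and 0.880% with lower values in A549-TIPARP cells. None of the members was more than 2-fold apart, where 1.96% of all genes were. No member had all libraries of one line above all libraries of the other, as 8.91% of all genes had. The mean deposited log2 TPM was higher in A549-TIPARP cells for 3 members (IKBKE, IRF7 and DDX58) and lower for 5, with a median difference of -0.05 against -0.07 over all tested genes. Whether a lower level means less RNA per cell or fewer cells that express a gene cannot be told apart in bulk RNA.

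Per transcript length, IRF3 was the most abundant of the 10 genes, at 73.9 to 121 TPM over the 6 libraries. MAVS (20.0 to 34.1 TPM) and TBK1 (20.0 to 31.2 TPM) followed and did not separate from each other over all libraries. IKBKE came next at 5.20 to 7.73 TPM, with DDX58, IFIH1, IRF7 and MB21D1 below it in the order of their means. The ranges of neighbours in this order overlapped from IKBKE down to MB21D1, and gaps lay only below IRF3, below TBK1 and between MB21D1 and the floor. Among the tested genes, the mean of IRF3 ranked at the 89.2 percentile, that of TBK1 at the 63.1 percentile and that of MB21D1 at the 7.89 percentile. Within A549-TIPARP cells alone the ranges of MAVS and TBK1 were separate, as were those of IKBKE and DDX58. Within A549-GFP cells neither pair of neighbours was separate, and IFIH1 had a higher mean than DDX58.

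**Figure D1:**
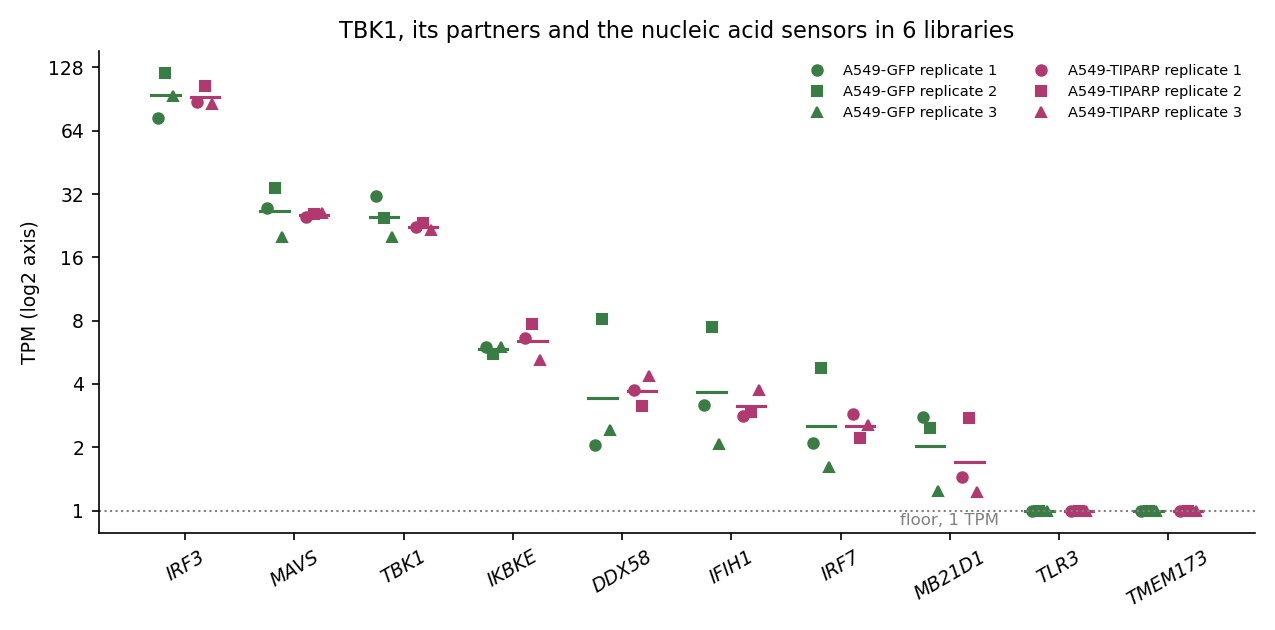
TPM of the 10 genes on a log2 axis, with 1 point per library (green, A549-GFP; magenta, A549-TIPARP; the marker shape gives the replicate number) and a line at the mean of the deposited log2 values of each line. The points of the lines overlap for each of the 8 genes above the floor, A549-GFP replicate 2 is the highest point for DDX58, IFIH1, IRF7, IRF3 and MAVS, and TLR3 and TMEM173 lie on the dotted floor of 1 TPM in all 6 libraries.

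TBK1 (chromosome 12 of hg38, 64452090 to 64502114, plus strand, 21 exons in its canonical GENCODE 44 transcript), the kinase on which the sensing routes meet, was at 31.2, 24.7 and 20.0 TPM in A549-GFP replicates 1, 2 and 3. It was at 22.3, 23.3 and 21.5 TPM in A549-TIPARP replicates 1, 2 and 3. The A549-TIPARP libraries lay close together and inside the range of the control libraries. The mean log2 TPM was 4.64 ± 0.32 (SD, n = 3) in A549-GFP cells and 4.48 ± 0.06 (SD, n = 3) in A549-TIPARP cells, a ratio of 0.898. On log2(TPM + 1) the difference was -0.15 (standard error 0.21, limma unadjusted p = 0.498, adjusted p = 0.994). Its 95% interval ran from -0.63 to 0.33, that is, from 0.645-fold to 1.26-fold of TPM + 1. A change of 2-fold in either direction lay outside it, while these libraries do not tell apart the differences within it. Over 16 alternative settings the TBK1 difference lay between -0.30 and 0.01, with adjusted p-values from 0.388 to 1.0. Of the 14716 exon bases of TBK1, 492 are shared with a gene without a symbol on the opposite strand. Another such gene on the same strand shares 72.

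IKBKE (chromosome 1, 206470476 to 206496889, plus strand, 22 exons), the second kinase that phosphorylates IRF3 and IRF7, was at 6.02, 5.53 and 6.03 TPM in the A549-GFP libraries and at 6.63, 7.73 and 5.20 TPM in the A549-TIPARP libraries. The A549-TIPARP libraries held both the highest and the lowest value. The difference was 0.12 on log2(TPM + 1) (95% interval -0.38 to 0.62, limma unadjusted p = 0.601, adjusted p = 0.994). The log2 ratio of IKBKE to TBK1 within a library, which does not depend on the scaling between libraries other than through the pseudocount, was -1.92 ± 0.31 (SD, n = 3) in A549-GFP cells and -1.65 ± 0.19 (SD, n = 3) in A549-TIPARP cells. This difference of 0.27 did not pass an exact permutation test (two-sided, n = 3 per line, p = 0.3, adjusted over 3 ratios p = 0.6), where 3 against 3 libraries cannot give a p under 0.1. IKBKE shares 156 exon bases with the antisense gene IKBKE-AS1, and the strand setting of the quantification is not given in the sources used here.

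IRF3 (chromosome 19, 49659569 to 49665875, minus strand, 8 exons), the transcription factor that is present before infection and is activated by TBK1, was at 73.9, 121 and 93.7 TPM in the A549-GFP libraries. It was at 87.6, 104 and 86.0 TPM in the A549-TIPARP libraries, all inside the range of the control libraries. The difference was -0.03 on log2(TPM + 1), with a 95% interval of -0.51 to 0.45 (limma unadjusted p = 0.883, adjusted p = 0.998). Of the 3794 exon bases of IRF3, 734 are shared with BCL2L12 on the opposite strand, so reads of these bases could have been counted to either gene.

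IRF7 (chromosome 11, 612553 to 615983, minus strand, 11 exons), the interferon-inducible partner of IRF3, was at 2.09, 4.78 and 1.61 TPM in A549-GFP replicates 1, 2 and 3. It was at 2.87, 2.21 and 2.56 TPM in the A549-TIPARP libraries. A549-GFP replicate 2 was the highest of the 6 libraries, and A549-GFP replicates 1 and 3 were the lowest. The mean log2 TPM was 1.34 ± 0.82 (SD, n = 3) in A549-GFP cells and 1.34 ± 0.19 (SD, n = 3) in A549-TIPARP cells, and the difference on log2(TPM + 1) was -0.02 (95% interval -0.74 to 0.69, limma adjusted p = 0.998). The log2 ratio of IRF7 to IRF3 was -4.73 ± 0.41 (SD, n = 3) and -4.72 ± 0.27 (SD, n = 3) in the lines (exact permutation test, two-sided, p = 1.0, adjusted p = 1.0).

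DDX58, listed under its older symbol and now named RIGI (chromosome 9, 32455302 to 32526208, minus strand, 18 exons), encodes the receptor for RNA with a 5′ triphosphate. Its TPM was 2.05, 8.11 and 2.41 in the A549-GFP libraries (replicates 1, 2 and 3) and 3.74, 3.16 and 4.36 in the A549-TIPARP libraries. The A549-TIPARP libraries lay between A549-GFP replicate 2 above and A549-GFP replicates 1 and 3 below. The mean log2 TPM was 1.77 ± 1.08 (SD, n = 3) in A549-GFP cells and 1.90 ± 0.23 (SD, n = 3) in A549-TIPARP cells. The difference was 0.05 on log2(TPM + 1), with an interval from -0.86 to 0.97 (limma unadjusted p = 0.898, adjusted p = 0.998). The interval reached from 0.550-fold to 1.96-fold of TPM + 1, wider than that of TBK1. At this low level a TPM 2-fold lower or higher lay inside it. A gene without a symbol on the same strand shares 4471 exon bases with DDX58, so its TPM is uncertain where reads were divided.

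IFIH1 (chromosome 2, 162267074 to 162318684, minus strand, 16 exons), the receptor for long double-stranded RNA whose upstream sequence is shown above with its capitals, was at 3.17, 7.49 and 2.07 TPM in the A549-GFP libraries. It was at 2.80, 2.94 and 3.76 TPM in the A549-TIPARP libraries. As for DDX58, A549-GFP replicate 2 was above all others. The difference was -0.20 on log2(TPM + 1) (95% interval -1.03 to 0.62, limma unadjusted p = 0.591, adjusted p = 0.994), so a level lowered by 2-fold was not outside the interval. The log2 ratio of IFIH1 to DDX58 was 0.07 ± 0.33 (SD, n = 3) in A549-GFP cells and -0.19 ± 0.12 (SD, n = 3) in A549-TIPARP cells (exact permutation test, two-sided, p = 0.4, adjusted p = 0.6).

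MAVS (chromosome 20, 3846799 to 3876123, plus strand, 7 exons), the mitochondrial adaptor of both RNA receptors, was at 27.5, 34.1 and 20.0 TPM in the A549-GFP libraries and at 24.8, 25.7 and 26.0 TPM in the A549-TIPARP libraries. The A549-TIPARP values spanned little and lay inside the control range. The difference was -0.06 on log2(TPM + 1) (95% interval -0.57 to 0.46, limma unadjusted p = 0.807, adjusted p = 0.998).

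MB21D1, now named CGAS (chromosome 6, 73413515 to 73452297, minus strand, 5 exons), the cytosolic DNA sensor, was near the floor. It was at 2.79, 2.46 and 1.23 TPM in the A549-GFP libraries and at 1.44, 2.76 and 1.22 TPM in the A549-TIPARP libraries. High and low values occurred in both lines. The difference was -0.17 on log2(TPM + 1) (95% interval -0.85 to 0.50, limma unadjusted p = 0.574, adjusted p = 0.994). MB21D1 shares 180 exon bases with DDX43 on the opposite strand.

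TMEM173, now named STING1 (chromosome 5, 139475533 to 139482935, minus strand, 8 exons), the adaptor that receives the cGAS product, was listed at 0 in all 6 libraries. TLR3 (chromosome 4, 186068911 to 186088073, plus strand, 5 exons), the endosomal receptor, was also listed at 0 in all 6. Neither can be compared between the lines, and a TPM of 1 or less cannot be told from no expression. Of 194 ribosomal, proteasomal and other genes of general use, 4 were listed at 0, all of them tissue-restricted relatives (PSMB11, RPL10L, RPL3L and PSMA8). Because TMEM173 was at the floor, a ratio of MB21D1 to it carries nothing beyond MB21D1 and is not given.

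**Figure D2:**
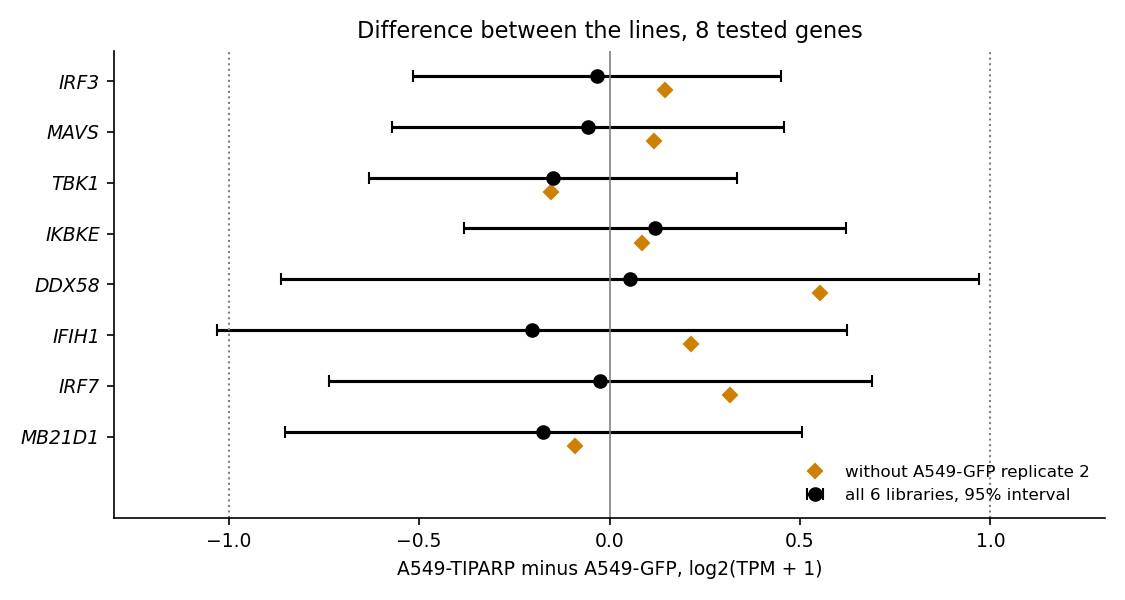
Difference between A549-TIPARP and A549-GFP cells on log2(TPM + 1) for the 8 tested genes, with all 6 libraries (black points, bars give the limma 95% interval) and without A549-GFP replicate 2 (orange diamonds, no interval drawn). Each interval crosses 0, and only that of IFIH1 reaches past the dotted line at -1, which marks 2-fold of TPM + 1. For genes of few TPM a 2-fold change of TPM lies inside the dotted lines. The intervals of DDX58, IRF7 and MB21D1 also held a TPM 2-fold lower, and that of DDX58 a TPM 2-fold higher. Without A549-GFP replicate 2, DDX58 moves from 0.05 to 0.55.

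DDX58, IFIH1 and IRF7 varied more among the A549-GFP libraries than the kinases did. A549-GFP replicate 2 exceeded the mean of the other A549-GFP libraries (log2 scale) by 3.65-fold for DDX58, 2.92-fold for IFIH1 and 2.61-fold for IRF7. For MAVS it was higher by 1.45-fold, for TBK1 its level was 0.990 of theirs and for IKBKE 0.918. That library held the highest of 6 values for 5 of the 8 members (62.5%), and for 52.0% of all tested genes. Some other interferon signalling genes, named after their values were seen, were high in the same library. IRF9, the DNA-binding part of the interferon-activated complex, was at 15, 48.8 and 11.5 TPM in the A549-GFP libraries and at 21.0, 17.3 and 22.2 TPM in the A549-TIPARP libraries. STAT2, which binds IRF9, was at 7.32, 25.3 and 8.10 TPM and at 8.92, 9.38 and 15 TPM. IRF1, an interferon-inducible factor, was at 3.89, 10.7 and 3.32 TPM and at 5.61, 5.25 and 5.81 TPM. For all 3 genes A549-GFP replicate 2 was the highest library. It was the highest for 11 of 18 tested interferon-stimulated genes (61.1%), but for only 3 of 9 tested genes of other RNA recognition (33.3%). In that last list OAS1 was at 86.8, 77.2 and 92.3 TPM in A549-GFP replicates 1, 2 and 3. EIF2AK2 (14.8, 9.06 and 9.33 TPM) and OAS3 (23.7, 15.9 and 15.5 TPM), also named after their values were seen, were highest in A549-GFP replicate 1.

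**Figure D3:**
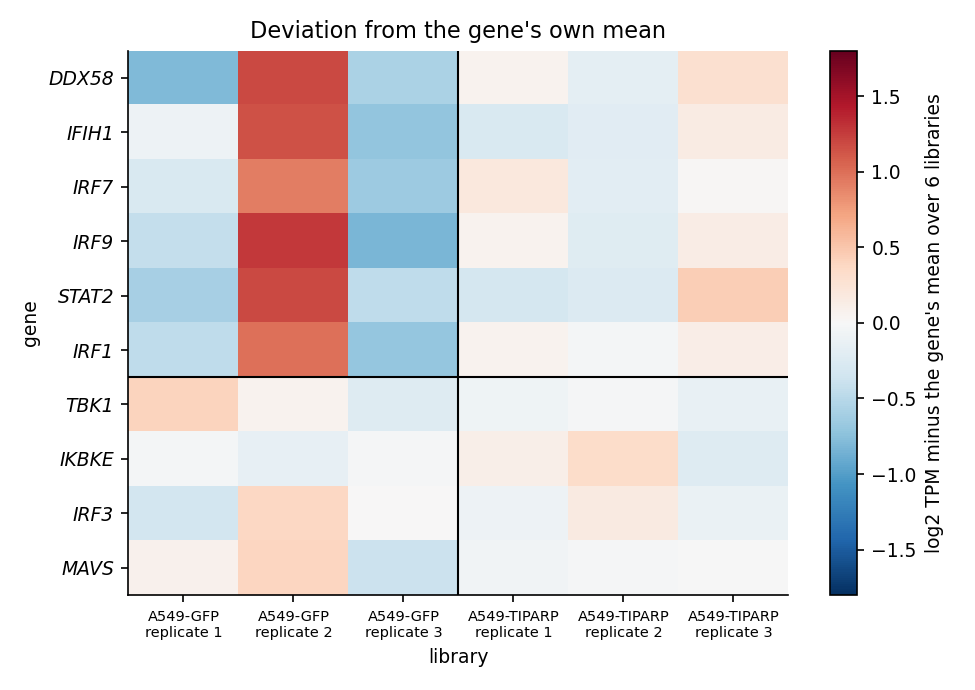
Deviation of log2 TPM from the gene's own mean over 6 libraries, 1 column per library and 1 row per gene, with red above and blue below the mean. The upper 6 genes (DDX58, IFIH1, IRF7, IRF9, STAT2 and IRF1) are highest in A549-GFP replicate 2. So are IRF3 and MAVS in the lower rows, whereas TBK1 and IKBKE are not. IRF9, STAT2 and IRF1 were chosen after their values were seen.

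Without A549-GFP replicate 2, DDX58 was 1.67-fold higher in A549-TIPARP cells (limma unadjusted p = 0.0143, adjusted p = 0.338) and IRF7 was 1.38-fold higher (unadjusted p = 0.0739, adjusted p = 0.522). For both genes the 3 A549-TIPARP libraries were then above the 2 remaining A549-GFP libraries, as they were for 21.2% of all genes. DDX58 was the only member with an unadjusted p under 0.05, a threshold that 9.30% of all genes passed with higher values in A549-TIPARP cells. IFIH1 was 1.23-fold higher (unadjusted p = 0.309) and still overlapped between the lines. TBK1 had a ratio of 0.895 without that library and IKBKE one of 1.07, close to their ratios with it. The median difference of the 8 members was 0.13 without that library, against 0.05 over all genes. What set A549-GFP replicate 2 apart was not tested.

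The 128 other genes of the pathway, in 9 lists by role, included no gene with an adjusted p under 0.05. Of these genes, 27 were listed at 0 in all libraries and 97 were tested. In A549-TIPARP cells 30 had a higher and 67 a lower mean, beside 5285 higher and 7896 lower means over all 13181 tested genes, a general tilt against which the tallies of single lists below are to be read. The median difference was -0.12 on the deposited log2 scale against -0.07 over all tested genes. OAS1 alone had an unadjusted p under 0.05. OAS1, which makes the second messenger that activates RNase L upon binding double-stranded RNA, was at 86.8, 77.2 and 92.3 TPM in A549-GFP cells and at 46.6, 60.4 and 54.6 TPM in A549-TIPARP cells. All A549-TIPARP libraries were below all A549-GFP libraries, a ratio of 0.628 (limma unadjusted p = 0.00518, adjusted p = 0.778). Without A549-GFP replicate 2 the number of pathway genes with an unadjusted p under 0.05 was 15, of which 14 of 97 were higher in A549-TIPARP cells, where 9.30% of all genes were, and 0 had an adjusted p under 0.05.

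Among the genes that assist RIG-I, MDA5 and MAVS, 15 of 17 were tested, with 6 higher and 9 lower means and none with an unadjusted p under 0.05. PCBP1, which promotes the turnover of MAVS, was at 566 to 662 TPM in A549-GFP cells and at 489 to 566 TPM in A549-TIPARP cells (limma unadjusted p = 0.139), and PPP1CA, a phosphatase that activates both receptors, was at 321 to 403 and 348 to 447 TPM. Of the 20 genes of cytosolic DNA sensing, 17 were tested, 6 with a higher and 11 with a lower mean and none with an unadjusted p under 0.05. Its most abundant genes XRCC6 and XRCC5, which form the Ku heterodimer that binds DNA ends, overlapped between the lines with ratios of 0.911 and 0.949. Of 17 Toll-like receptors and adaptors, 7 were at 0 in all libraries and 10 were tested, with 1 higher and 9 lower means. UNC93B1, which escorts endosomal Toll-like receptors, had a ratio of 0.923 and IRAK1, a kinase downstream of them, one of 0.940. In the latter list A549-GFP replicate 2 was the highest of 6 libraries for 9 of the 10 tested genes, beside 52.0% of all tested genes.

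All 12 scaffolds and substrates of TBK1 were tested, with 3 higher and 9 lower means, a median difference of -0.19 and no unadjusted p under 0.05. SQSTM1, the autophagy receptor p62, was at 506 to 646 TPM in A549-GFP cells and 588 to 673 TPM in A549-TIPARP cells, and DDX3X, an RNA helicase that TBK1 phosphorylates, was at 76.9 to 133 and 79.1 to 98.5 TPM. TANK and OPTN were named after their values were seen. TANK, a scaffold that binds TBK1 and IKK epsilon, was at 28.1, 71.1 and 21.6 TPM in A549-GFP cells and at 22.0, 21.0 and 30.4 TPM in A549-TIPARP cells. OPTN, a ubiquitin-binding TBK1 substrate, was at 18.4, 48.1 and 18.2 TPM in A549-GFP cells and at 28.9, 27.6 and 34.5 TPM in A549-TIPARP cells. For both, A549-GFP replicate 2 was the highest library. Without it, the OPTN ratio went from 1.19 to 1.65 (limma unadjusted p = 0.00396, adjusted p = 0.240), while that of TANK went from 0.687 to 0.978.

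Of 9 other IRF family genes and IRF2-binding proteins, 7 were tested, with 3 higher and 4 lower means and none with an unadjusted p under 0.05. IRF2BP2 and IRF2BP1, corepressors that bind IRF2, had ratios of 1.17 and 0.808. Without A549-GFP replicate 2 the median difference of this list went from -0.02 to 0.55, and 4 of the 7 genes (IRF1, IRF9, IRF2BP2 and IRF5, the last named after its values were seen) had an unadjusted p under 0.05 with higher values in A549-TIPARP cells, as 9.30% of all genes had. None of the 7 had an adjusted p under 0.05 then. Of 12 other RNA recognition genes, 9 were tested and all 9 had a mean below that of A549-GFP cells, with a median difference of -0.16, and 1 of them, OAS1, had an unadjusted p under 0.05. Of 15 negative regulators of sensing, 13 were tested, with 4 higher and 9 lower means. RBCK1, a subunit of a ubiquitin ligase complex, had a ratio of 0.808. No negative regulator had an unadjusted p under 0.05.

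Type I and III interferon transcripts, the direct output of TBK1 and IRF3, were largely not seen. Of 12 interferon genes, 11 were listed at 0 in all 6 libraries. IFNE, an epithelial interferon that is not induced by these sensors, was at 1.49, 4.87 and 1.5 TPM in A549-GFP cells and at 2.49, 2.28 and 3.05 TPM in A549-TIPARP cells (limma unadjusted p = 0.751), again with A549-GFP replicate 2 as the highest library. Of 14 interferon receptor and signalling genes, 13 were tested, with 6 higher and 7 lower means and none with an unadjusted p under 0.05. IFNGR1, a chain of the interferon gamma receptor, was at 45.0 to 122 TPM in A549-GFP cells and at 35.9 to 52.3 TPM in A549-TIPARP cells (limma unadjusted p = 0.0883).

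Interferon-stimulated genes, which are read as a sign of signalling through this pathway, gave 18 tested genes of 28, with 9 higher and 9 lower means, a median difference of 0.05 and no adjusted p under 0.05. IFI35 was at 24.5, 30.6 and 29.5 TPM in A549-GFP cells and at 39.7, 38.0 and 44.4 TPM in A549-TIPARP cells, without overlap and 1.45-fold higher (limma unadjusted p = 0.0208, adjusted p = 0.994). IFITM2, a membrane protein that blocks virus entry, was at 9.97, 40.7 and 10.9 TPM in A549-GFP cells and at 53.5, 31.2 and 97.5 TPM in A549-TIPARP cells, 3.33-fold apart but with overlap at A549-GFP replicate 2 (limma unadjusted p = 0.0164, adjusted p = 0.983). Its neighbour IFITM3 was 2.94-fold apart with the same overlap (limma unadjusted p = 0.0557, adjusted p = 0.994), and the near-identical sequences of these genes leave the division of reads between them uncertain. Without A549-GFP replicate 2 the median difference of the interferon-stimulated genes was 0.55, against 0.05 over all genes, and 8 of the 18 had an unadjusted p under 0.05 with higher values in A549-TIPARP cells, as 9.30% of all genes had. None of the 18 had an adjusted p under 0.05 then.

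NF-kappaB feedback genes, a second output of these sensors, gave 11 tested genes of 12, of which 10 had a mean below that of A549-GFP cells, with a median difference of -0.36. NFKBIA, the inhibitor that NF-kappaB induces, was at 100 to 167 TPM in A549-GFP cells and at 80.1 to 91.4 TPM in A549-TIPARP cells, without overlap (ratio 0.676, limma unadjusted p = 0.0290, adjusted p = 0.994). CCL20, a chemokine, was at 1.63 to 7.14 TPM in A549-GFP cells and at 1 to 1.01 TPM in A549-TIPARP cells (limma unadjusted p = 0.0465, adjusted p = 0.994), where the floor makes the difference smaller than it was. A549-GFP replicate 2 was the highest library for 10 of these 11 genes, beside 52.0% of all tested genes. Without it the median difference was 0.06, against 0.05 over all genes. NFKBIA (ratio 0.782, limma unadjusted p = 0.0345, adjusted p = 0.434) and CCL20 (ratio 0.593, limma unadjusted p = 0.0041, adjusted p = 0.240) were still lower in A549-TIPARP cells without that library. For CCL20 the floor also cut the spread between the A549-TIPARP libraries, which can make its p-values too small.

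**Figure D4:**
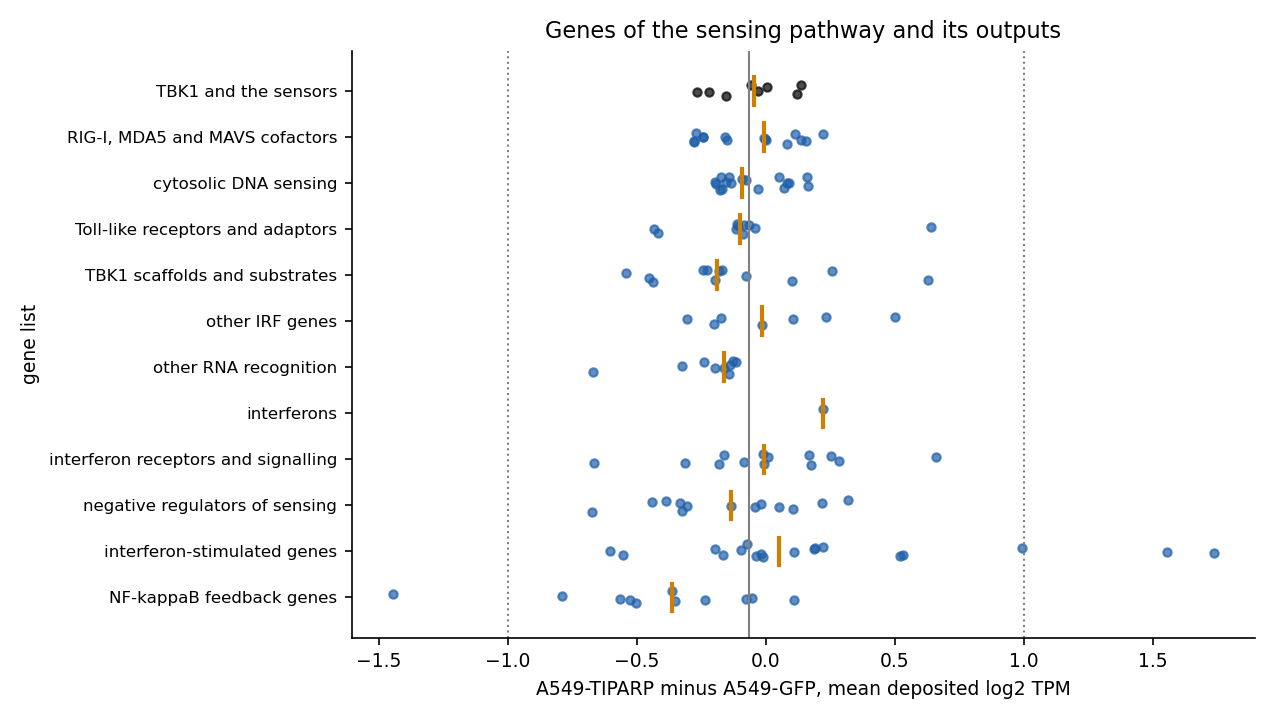
Difference of the mean deposited log2 TPM between A549-TIPARP and A549-GFP cells for each tested gene (points) of TBK1 and the sensors (black), of 9 lists of other pathway genes and of 2 lists of output genes (blue), with the list median in orange, the median of all tested genes as a grey line at -0.07 and dotted lines at 2-fold. The pathway points lie within 2-fold, and points past it occur only among interferon-stimulated genes (IFITM2 and IFITM3, higher) and NF-kappaB feedback genes (CCL20, lower).

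The genes whose pattern over the 6 libraries was most like that of TBK1, among 7980 genes of mean TPM above 10, were UGDH (Pearson r = 0.989 on log2(TPM + 1)), CCNC (r = 0.988) and CUL4A (r = 0.987). UGDH, an enzyme that makes UDP-glucuronate, was at 324 to 442 TPM, CCNC, which encodes cyclin C, at 41.7 to 54.1 TPM, and CUL4A, a ubiquitin ligase scaffold, at 31.6 to 40.7 TPM. These r values rest on 6 libraries of 2 lines that share their scaling, and they are the highest of many.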

How the data were processed

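RNA of 6 libraries, 3 of each line, was sequenced as paired-end reads on an Illumina NovaSeq instrument after TruSeq Stranded mRNA library preparation. With Strand NGS the authors aligned them to hg38 transcripts, and they deposited the log2 TPM of 53826 entries per library. The version, the annotation release and the strand setting are not given in the sources used here. No read counts were used, so depth and counting error are unknown, and count-based tests (edgeR, DESeq2) were not run.

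Groups and replicate numbers were taken from the sample titles. Deposited values were raised back to TPM, and entries at 0 became a TPM of 1. The 13181 genes whose TPM exceeded 2 in any of the 6 libraries were tested with limma 3.58.1 in R 4.3.3 on log2(TPM + 1), with a variance trend, no block and Benjamini-Hochberg adjustment over all of them. The script was tested on simulated data. Fold changes are differences of the mean deposited log2 values, while intervals and standard errors are on log2(TPM + 1), which understates differences of low genes. A count of genes more than 2-fold apart has no test. Of 4 planned ratios between members, the one to TMEM173 was void, as that gene was at the floor. The other 3 were tested in scipy 1.17.1 with an exact permutation test and adjusted together. No correlation or list was tested.

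Named genes were the 10 members, TIPARP, the genes of each list with an unadjusted p under 0.05 and no overlap, or more than 2-fold apart, otherwise the 2 with the highest mean TPM, and the 3 genes most like TBK1. Of the genes this rule names, 2 are not reported here. Others are said to have been named after their values were seen. The members and lists were chosen with earlier results of these data known. Coordinates and exon overlaps are from GENCODE 44 on hg38, and promoter sequences from RefSeq (GRCh38.p14). Alternatives changed the pseudocount, filter, scaling, weights and block, removed small RNA entries, or left out 1 library in turn.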

Additional observations from a re-analysis of the deposited data

How the results depend on the processing

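In none of the 16 alternative settings did a member pass an adjusted p of 0.05 or lie more than 2-fold apart. Differences below are on the log2(TPM + 1) scale unless the setting changes it, none of those that turned direction passed a test with all libraries, and the cause was not tested. With array weights, which give A549-GFP replicate 2 little weight, 199 genes had an adjusted p under 0.05 in place of 2, 1 member (DDX58, limma unadjusted p = 0.0341, adjusted p = 0.288) and 17 of 97 pathway genes had an unadjusted p under 0.05, as 15% of all genes had, and the differences of IRF3 and IRF7 were 0.18 and 0.26. Without a pseudocount that of IRF7 was 0.0054, and with a pseudocount of 0.1 it was 0.00012. Pathway genes with an unadjusted p under 0.05 numbered 3 with entries at 0 taken as a TPM of 0 (chosen after seeing the data), 3 with median-ratio scaling, 4 with no filter and 2 with small RNA entries removed, in place of 1. In the same order of settings, 3.86%, 5.96%, 4.46% and 4.2% of all tested genes had such a p, in place of 3.85%. Median-ratio scaling shifted the median of all genes by 0.07 and gave 0.032 for IRF3, 0.036 for IRF7 and 0.0069 for MAVS. With no filter 1 gene had an adjusted p under 0.05. Both lines carry the experiment numbers 1 to 3, and whether equal numbers mark a shared experiment is not stated. Deviations of same-numbered libraries correlated with r = 0.452, -0.516 and -0.379 across genes and those of differently numbered libraries with r from -0.645 to 0.621, so the values give no sign of pairing by number. With the replicate block 1 gene had an adjusted p under 0.05, that gene was not a member, and TIPARP had an adjusted p of 0.513 at the same difference of 3.90.

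With 1 library left out in turn, the differences ranged from -0.30 to 0.0064 for TBK1, from -0.21 to 0.15 for IRF3, from -0.26 to 0.32 for IRF7, from -0.24 to 0.55 for DDX58, from -0.52 to 0.21 for IFIH1 and from -0.25 to 0.12 for MAVS, and that of the ratio of IRF7 to IRF3 from -0.22 to 0.17. Over the same fits, genes with an adjusted p under 0.05 numbered 1 to 3, members with an unadjusted p under 0.05 numbered 0 to 1, members without overlap 0 to 2 and pathway genes 1 to 15. The members without overlap were IRF7 and DDX58 (higher with TIPARP) once A549-GFP replicate 2 was left out, TBK1 and MAVS (lower) without A549-GFP replicate 3 and IKBKE (higher) without A549-TIPARP replicate 3, where 27.7%, 30.7% and 13.5% of all genes did not overlap. The pathway count was 10 of 97 without A549-GFP replicate 3, where 8.23% of all genes had an unadjusted p under 0.05. The direction turned for TBK1 and DDX58 without A549-GFP replicate 1 and for IRF3, IRF7, IFIH1 and MAVS without A549-GFP replicate 2, each at the end of its range. Without A549-GFP replicate 3 DDX58 was at -0.16 and the ratio turned. Without A549-TIPARP replicate 1 IRF3 was at 0.0039 and that ratio at -0.09, without A549-TIPARP replicate 2 IRF7 was at 0.05, and without A549-TIPARP replicate 3 IRF3 was at 0.02, DDX58 at -0.04 and the ratio at -0.05. The adjusted p of TIPARP ranged from 0.0331 (without A549-GFP replicate 2) to 0.192 (without A549-TIPARP replicate 3).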

Other observations

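Genes that act beside these sensors in inflammasome signalling were read after the other results were seen, and those named were chosen by their values. PYCARD, the adaptor ASC that links inflammasome sensors to caspase-1, was at 2.72, 1.65 and 1.25 TPM in A549-GFP replicates 1, 2 and 3. It was at 3.72, 4.19 and 7.49 TPM in the A549-TIPARP libraries, all of them above the A549-GFP libraries and 2.75-fold apart (limma unadjusted p = 0.00682, adjusted p = 0.856). GSDMD, the pore-forming protein cut by inflammatory caspases, was at 12.4, 22.6 and 14.4 TPM in A549-GFP cells and at 26.9, 22.5 and 36.8 TPM in A549-TIPARP cells, with overlap at A549-GFP replicate 2 (1.77-fold, limma unadjusted p = 0.0214, adjusted p = 0.994). CASP4, an inflammatory caspase that cuts GSDMD, was at 2.87, 17.4 and 2.79 TPM in A549-GFP cells and at 5.90, 3.99 and 9.70 TPM in A549-TIPARP cells, with the highest value in A549-GFP replicate 2 (1.18-fold, limma unadjusted p = 0.808, adjusted p = 0.998). Without that library CASP4 was 2.16-fold higher in A549-TIPARP cells without overlap (limma unadjusted p = 0.0343, adjusted p = 0.433). CASP1 and NLRP1 were listed at 0 in all 6 libraries, and IL18 overlapped between the lines (1.02-fold, adjusted p = 0.998).

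APOBEC3B, a DNA cytidine deaminase, moved the other way from DDX58 in A549-GFP replicate 2. Its TPM was 20.6, 1.04 and 23.4 in the A549-GFP libraries and 24.7, 42.2 and 8.81 in the A549-TIPARP libraries, a 2.64-fold difference (limma unadjusted p = 0.261, adjusted p = 0.994) that became a ratio of 0.954 without that library. Its relatives APOBEC3C (47.4 TPM) and APOBEC3F (7.75 TPM) were highest of the 6 libraries in A549-GFP replicate 2, as DDX58 was, and APOBEC3G was listed at 0 in all 6.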
